A study of Homo sapiens with 8 samples.

Results

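The transcription factor genes OTX2, GBX2, HES3, ZIC2, SOX11 and SOX3, which are active in the early neural plate and, several of them, already in the anterior epiblast, were followed across 4 groups of human embryonic stem cells. They were chosen by name, with earlier results of these data known. All 6 of 6 were found among the 45961 genes of the expression table and passed the filter on low values that left 12449 genes for testing. The cells were H9, an established human embryonic stem cell line, at passages given as 41-50, and polyA RNA was sequenced from 8 libraries, 2 in each group. D1_Co (replicates 2 and 3), D2_Co (replicates 1 and 3) and D3_Co (replicates 1 and 2) are read as co-culture on days 1, 2 and 3, and D3_Control (replicates 2 and 3) as separate culture on day 3. The labels do not name the partner cells or the way in which human cells were set apart from them, and no agent or genetic change is listed for any group. The growth conditions are given for all libraries together, as Matrigel with mTeSR1 medium or mouse feeder fibroblasts with a medium holding FGF2 and the WNT inhibitor IWR1. There is 1 line and no separate culture of days 1 or 2, so for D1_Co and D2_Co against D3_Control the day and the co-culture cannot be told apart.

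Pluripotent cells that leave the epiblast take on a neural fate by default when signals for mesoderm and endoderm are low, and a set of transcription factors that is on before that choice stays on in the neural plate. OTX2, a homeodomain protein, marks the forebrain and midbrain side and helps to set up the primed state of the epiblast, while GBX2, another homeodomain protein, marks the hindbrain side, and in the mouse embryo each holds the other back at the border between them. SOX3 belongs with SOX2 to the SOXB1 proteins, which keep cells in a neural progenitor state, SOX11 is a SOXC protein of later, differentiating neurons, ZIC2 is a zinc finger protein needed for forebrain patterning, and HES3 is a basic helix-loop-helix repressor that in the mouse keeps neural progenitors from differentiating too early.

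In GENCODE release 29 on GRCh38, OTX2 lies on the minus strand of chromosome 14 (chr14:56799905-56810479), GBX2 on the minus strand of chromosome 2 (chr2:236165236-236168369) and HES3 on the plus strand of chromosome 1 (chr1:6244192-6245578). ZIC2 lies on the plus strand of chromosome 13 (chr13:99981772-99986773), SOX11 on the plus strand of chromosome 2 (chr2:5692667-5701385) and SOX3 on the minus strand of the X chromosome (chrX:140502985-140505116). SOX11 and SOX3 are listed with 1 exon each. Exons of GBX2 overlap AC019068.1 on the opposite strand and those of SOX11 overlap AC108025.2 on the same strand, so their values are uncertain to that extent. For GBX2 this is because no strand setting is given in the sources used here. For SOX11 no strand setting could part the 2 genes. Promoters from RefSeq (GRCh38.p14), 250 bases before to 50 after a gene's start, were matched for OTX2, which has 2 starts in the table, and for GBX2, HES3, ZIC2 and SOX3, which have 1 each. The 4 genes with the largest differences between groups are shown, OTX2 at its first listed start, from 5′ to 3′ on the strand of the gene. Capitals mark matches on either strand to CCAAT (the CCAAT box), TATAAA (the TATA box), ACAAT (the core of SOX sites), TAATCC (an OTX-type homeodomain site) or CACGTG (an E-box of basic helix-loop-helix proteins).
OTX2, chr14:56810430-56810729, minus strand: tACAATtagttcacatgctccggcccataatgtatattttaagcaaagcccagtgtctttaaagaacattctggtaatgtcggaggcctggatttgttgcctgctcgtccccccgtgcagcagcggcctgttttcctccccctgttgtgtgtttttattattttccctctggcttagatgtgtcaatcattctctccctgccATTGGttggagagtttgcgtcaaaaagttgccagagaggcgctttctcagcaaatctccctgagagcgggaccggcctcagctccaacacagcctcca
GBX2, chr2:236168337-236168636, minus strand: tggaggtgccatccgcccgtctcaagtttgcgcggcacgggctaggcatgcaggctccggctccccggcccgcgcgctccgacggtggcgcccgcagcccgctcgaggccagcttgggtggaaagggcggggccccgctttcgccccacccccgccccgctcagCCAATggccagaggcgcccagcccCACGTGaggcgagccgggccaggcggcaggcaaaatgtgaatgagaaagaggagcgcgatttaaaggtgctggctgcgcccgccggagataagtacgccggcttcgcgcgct
HES3, chr1:6243929-6244228, plus strand: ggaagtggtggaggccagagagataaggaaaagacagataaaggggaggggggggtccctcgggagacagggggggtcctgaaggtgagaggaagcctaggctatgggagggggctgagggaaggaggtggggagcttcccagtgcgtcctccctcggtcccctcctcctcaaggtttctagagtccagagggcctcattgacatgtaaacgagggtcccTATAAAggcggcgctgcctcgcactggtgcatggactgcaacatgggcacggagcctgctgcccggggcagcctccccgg
SOX3, chrX:140505020-140505319, minus strand: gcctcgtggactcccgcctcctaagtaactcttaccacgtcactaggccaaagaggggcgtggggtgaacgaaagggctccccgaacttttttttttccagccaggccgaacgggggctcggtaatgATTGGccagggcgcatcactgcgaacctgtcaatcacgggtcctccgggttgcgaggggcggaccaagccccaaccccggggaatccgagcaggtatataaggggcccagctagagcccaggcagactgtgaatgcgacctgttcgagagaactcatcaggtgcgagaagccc
The promoters of GBX2 and SOX3 and that of OTX2 at its first start hold a CCAAT box, as do 34.6% of the 35116 promoters of that table, and the promoter at the second OTX2 start (chr14:56805618-56805917) does not. HES3 has a match to TATAAA that begins 30 bases before its start, as found in 11.5% of promoters. Only these exact letters were searched, so a promoter without a match may still hold another form of the TATA box. GBX2 also holds the E-box (7.26% of promoters) and OTX2 the SOX core at both starts (27.4%), and TAATCC (6.36%) was found in none of the 6 promoters of these 5 genes. GBX2 and ZIC2 are rich in G and C, at 71.3% and 75.0%, with 36 and 35 CpG pairs, against medians of 58.7% and 14 over all promoters. At the first OTX2 start, where 49.7% of bases are G or C, there are 9 CpG pairs. These are matches of letters, and nothing in the data shows a factor bound there.

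Levels are given in FPKM, a fragment number corrected for transcript length and library size, so that genes of different length share 1 scale. In the deposited table many values stand on the row of another gene, and each was first returned to its gene from the order of the rows. For OTX2, GBX2, HES3 and SOX11 the rows had kept their own values in all 8 libraries. The row of ZIC2 had moved in 7 libraries and read 0 in both D3_Control libraries as deposited, where the returned values are 71.9 and 74.7 FPKM. The row of SOX3 had moved in 3 libraries and read 130 and 120 FPKM in D3_Co as deposited, where the returned values are 12.9 and 12.3 FPKM. All of these moves of ZIC2 and the D3_Co values of SOX3 were the sole placement that the row order allows. SOX3 in D1_Co replicate 3 is the exception, since the orders with 8.93 FPKM and with its deposited 8.17 FPKM were equally close. There 8.93 FPKM is used. For some values left in place the row order also allowed others. They were set aside because the whole order of that library then lay farther from D1_Co replicate 2. The next best of these were 0.333 and 0.306 FPKM for OTX2 in D3_Co and 36.8 and 38.6 FPKM for SOX11 in D2_Co. For SOX3 they were 73.4 and 9.51 FPKM in D2_Co and 69.5 and 8.66 FPKM in D3_Control. Taken alone, the 9.51 FPKM (D2_Co replicate 3) and 8.66 FPKM (D3_Control replicate 3) lie closer to D1_Co replicate 2, at 9.39 FPKM, than the values used. HES3 and SOX11 in D3_Control replicate 3 had such a value too. The 130 and 120 FPKM on the SOX3 row are the values that returned to SOX2, the neighbour in gene number.

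**Figure D1:**
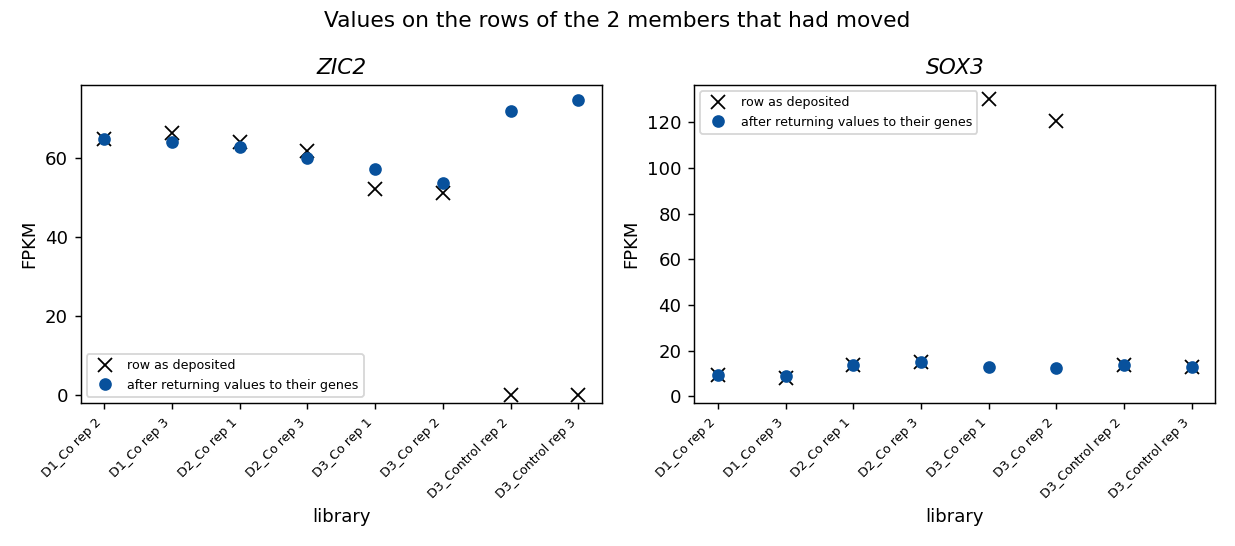
FPKM of ZIC2 and SOX3 in each of the 8 libraries, with crosses for the value on the gene's row as deposited and circles for the value returned to the gene. The D3_Control values of ZIC2 move off 0 to 71.9 and 74.7 FPKM, and the D3_Co values of SOX3 move off 130 and 120 FPKM to 12.9 and 12.3 FPKM.

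Differences below are of log2(FPKM + 1), which understates changes of low genes, from limma fitted to all 8 libraries with Benjamini-Hochberg adjustment over 12449 genes, and errors are SDs over n = 2 libraries. Whether the libraries of a group stem from different cultures is not stated in the labels, and the p-values cover no more than the spread between them, which may be technical. In bulk RNA, fewer cells of a type and less RNA per cell cannot be told apart. The 3 comparisons with D3_Control share its 2 libraries. In them, rose and fell mean higher and lower than D3_Control, and not a change over time. The FPKM of a library added up to 421825 to 440675, and read depth is unknown. POU5F1, the central factor of pluripotency, lay between 722 and 811 FPKM in all libraries. The neural progenitor gene PAX6 stayed at or below 0.215 FPKM and SOX1, an early marker of the neural plate, at or below 0.0130 FPKM. The members were therefore measured in cells without these defining neural markers. Of 24 fibroblast markers, 9 or 10 stayed under 1 FPKM in each library and DCN and LUM were at 0 in all 8, while their summed level was 1592 to 2055 FPKM in the co-culture libraries and 1048 and 1175 FPKM in D3_Control. The part of other cells in the results below was not tested.

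OTX2 was lowest in co-culture on day 3. It lay at 22.0 and 24.0 FPKM in D1_Co, 27.1 and 26.4 FPKM in D2_Co, 15.2 and 14.9 FPKM in D3_Co, and 33.1 and 29.3 FPKM in D3_Control. The D3_Co libraries lie below every other library and the D3_Control libraries above every other library, with no overlap between any groups. OTX2 fell to 15.1 ± 0.193 FPKM in D3_Co, against 31.2 ± 2.67 FPKM in D3_Control (log2 difference -0.998, SE 0.07, adjusted p = 0.000364), a ratio of means of 0.484. It was also lower in D1_Co than in D3_Control (-0.42, adjusted p = 0.00672), and the difference of D2_Co from D3_Control did not pass (-0.21, adjusted p = 0.0687). Within co-culture the fall came late: D3_Co was below D2_Co by a log2 difference of -0.79 (adjusted p = 0.00286) and below D1_Co by -0.58 (adjusted p = 0.00254), while D2_Co against D1_Co did not pass (0.21, adjusted p = 0.121). The groups from low to high were therefore D3_Co, D1_Co, D2_Co and D3_Control, and the neighbours D1_Co and D2_Co, and D2_Co and D3_Control, did not differ beyond the threshold. The 3 differences of D3_Co from the other groups passed in all 22 alternative analyses of the repaired values.

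GBX2 showed the highest level on day 1 of co-culture. It lay at 3.63 and 3.04 FPKM in D1_Co, 1.99 and 2.30 FPKM in D2_Co, 2.13 and 1.56 FPKM in D3_Co, and 2.12 and 1.88 FPKM in D3_Control. The D1_Co libraries stand above all others, and the remaining 3 groups overlap. GBX2 was higher in D1_Co, at 3.34 ± 0.420 FPKM, than in D3_Control, at 2.00 ± 0.169 FPKM (log2 difference 0.53, SE 0.13, adjusted p = 0.0269). It was lower in D3_Co than in D1_Co (-0.61, adjusted p = 0.0148), and D2_Co against D1_Co did not pass (-0.46, adjusted p = 0.0767). D3_Co differed from D3_Control by -0.09, with a 95% interval of -0.39 to 0.22. The levels are near the filter of 1 FPKM, and these calls were fragile. The first lost its call without D1_Co replicate 2 (adjusted p = 0.136), D3_Control replicate 2 (0.0686) or D3_Control replicate 3 (0.131), and the second without D1_Co replicate 2 (0.0773) or D3_Co replicate 2 (0.0715).

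Because the 2 homeodomain genes are set against each other in the embryo, their ratio per library is given as a description. OTX2 exceeded GBX2 by 6.07 and 7.89 times in D1_Co, 13.6 and 11.5 times in D2_Co, 7.16 and 9.61 times in D3_Co, and 15.6 and 15.6 times in D3_Control. The ratios of D1_Co and D3_Co overlap and lie under those of D2_Co and D3_Control. The 2 low ratios differ in makeup. In D1_Co GBX2 was higher than in D3_Control (0.53, a fragile call) and OTX2 was lower (-0.42). In D3_Co OTX2 was lower (-0.998) and GBX2 was not called (-0.09).

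HES3 differed most among the 6 genes, by a low level on day 1. It lay at 1.54 and 2.35 FPKM in D1_Co, 7.15 and 6.50 FPKM in D2_Co, 6.82 and 7.41 FPKM in D3_Co, and 9.56 and 9.64 FPKM in D3_Control. The D1_Co libraries lie far below the rest, D2_Co and D3_Co overlap, and D3_Control stands above all co-culture libraries. HES3 was lower in D1_Co, at 1.94 ± 0.571 FPKM, than in D3_Control, at 9.60 ± 0.0561 FPKM (log2 difference -1.86, SE 0.13, adjusted p = 0.000188), a ratio of means of 0.203. It rose in D2_Co relative to D1_Co (1.42, adjusted p = 0.00506) and was as much higher in D3_Co than in D1_Co (1.47, adjusted p = 0.00123), and D3_Co against D2_Co gave 0.05 with an interval of -0.25 to 0.36. The level stayed under that of separate culture, by -0.44 in D2_Co (adjusted p = 0.0461) and by -0.39 in D3_Co, where the test was not passed (adjusted p = 0.0684). The D2_Co call against D3_Control was lost without either D2_Co library (adjusted p = 0.0949 and 0.186), either D3_Co library (0.0645 and 0.0643) or either D3_Control library (0.142 and 0.152). The D3_Co difference passed without D1_Co replicate 2 (0.0190) or D1_Co replicate 3 (0.0194).

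SOX3 shared the low level on day 1 but not the gap on later days. It lay at 9.39 and 8.93 FPKM in D1_Co, 13.7 and 14.8 FPKM in D2_Co, 12.9 and 12.3 FPKM in D3_Co, and 13.7 and 13.0 FPKM in D3_Control. Both D1_Co libraries lie below the others, which span a narrow range. SOX3 was lower in D1_Co, at 9.16 ± 0.327 FPKM, than in D3_Control, at 13.3 ± 0.496 FPKM (log2 difference -0.49, SE 0.07, adjusted p = 0.00245). It rose in D2_Co relative to D1_Co (0.59, adjusted p = 0.0102) and in D3_Co relative to D1_Co (0.42, adjusted p = 0.00567). Against D3_Control the differences were 0.09 in D2_Co (interval -0.06 to 0.25) and -0.08 in D3_Co (interval -0.23 to 0.08). With 8.17 FPKM in D1_Co replicate 3 the D1_Co difference was -0.55 (adjusted p = 0.00332). The row order also allowed 8.66 FPKM in D3_Control replicate 3, which would lie below both D1_Co libraries, and 9.51 FPKM in D2_Co replicate 3. The differences with these 2 values were not tested. The rise in D2_Co lost its call without D1_Co replicate 3 (adjusted p = 0.0502) or D2_Co replicate 3 (0.0641).

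ZIC2 was the most abundant of the 6 per length, and its differences were small. It lay at 64.8 and 64.0 FPKM in D1_Co, 62.8 and 59.9 FPKM in D2_Co, 57.2 and 53.7 FPKM in D3_Co, and 71.9 and 74.7 FPKM in D3_Control. The groups follow each other downward over the days of co-culture without overlap, all under D3_Control. ZIC2 fell to 55.5 ± 2.47 FPKM in D3_Co, against 73.3 ± 1.98 FPKM in D3_Control (log2 difference -0.40, SE 0.05, adjusted p = 0.00269), a call that passed in all 21 alternatives with repaired values. It was lower than in D3_Control by -0.25 in D2_Co (adjusted p = 0.0138) and by -0.18 in D1_Co (adjusted p = 0.0432). From day to day no step passed (D2_Co against D1_Co -0.07, adjusted p = 0.441; D3_Co against D2_Co -0.14, adjusted p = 0.103), and over both steps D3_Co was lower than D1_Co (-0.21, adjusted p = 0.0247). Calls on the smaller differences were fragile. In D2_Co the call was lost without D2_Co replicate 3 (0.0790) or D3_Control replicate 3 (0.0805). In D1_Co it was lost without D1_Co replicate 2 (0.124) or replicate 3 (0.136), D2_Co replicate 1 (0.0559) or replicate 3 (0.0558), and D3_Control replicate 2 (0.0909) or replicate 3 (0.195). In D3_Co against D1_Co it was lost without D1_Co replicate 2 (0.0930), D1_Co replicate 3 (0.0774) or D3_Co replicate 2 (0.116).

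SOX11 was nearly level across the study. It lay at 11.7 and 10.3 FPKM in D1_Co, 11.4 and 11.3 FPKM in D2_Co, 10.8 and 10.6 FPKM in D3_Co, and 11.0 and 11.4 FPKM in D3_Control. The pair of D1_Co libraries spans the whole range of the 8. None of the 6 comparisons passed (adjusted p from 0.488 to 0.882), and the differences from D3_Control were -0.03 in D1_Co (interval -0.19 to 0.14), 0.02 in D2_Co (-0.15 to 0.18) and -0.06 in D3_Co (-0.22 to 0.11). The size of the OTX2 difference in D3_Co lies outside all 3 intervals.

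**Figure D2:**
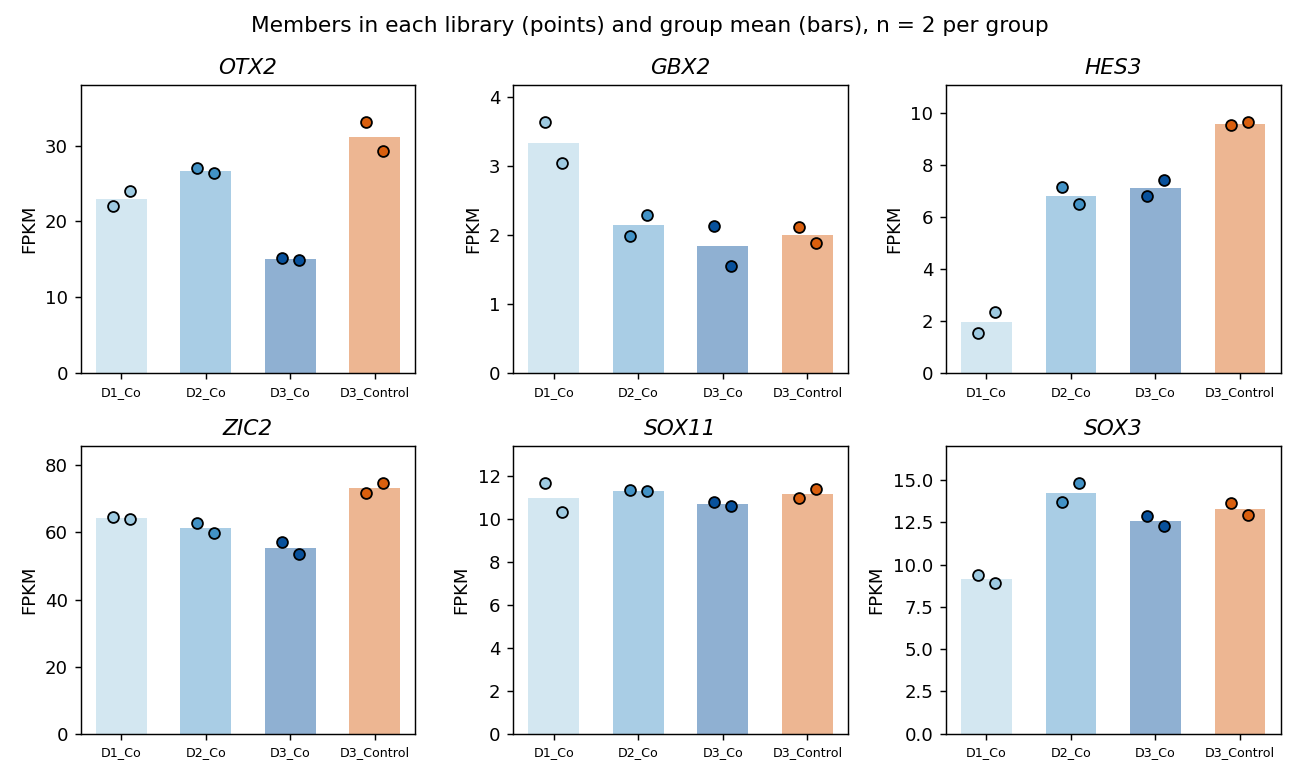
FPKM of OTX2, GBX2, HES3, ZIC2, SOX11 and SOX3 by group, with a point for each library and a bar for the mean of 2 libraries, and each axis starting at 0. OTX2 is lowest in D3_Co (15.2 and 14.9 FPKM), HES3 (1.54 and 2.35 FPKM) and SOX3 (9.39 and 8.93 FPKM) are lowest in D1_Co, GBX2 is highest in D1_Co, and SOX11 stays between 10.3 and 11.7 FPKM.

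Read by comparison, 2 of the 6 genes (OTX2 and ZIC2) were lower in D3_Co than in D3_Control and 0 were higher, where 24.4% of all tested genes were called, 10.8% lower and 13.5% higher. In D1_Co against D3_Control 4 were lower and GBX2 was higher, beside 22.8% of all genes (12.2% lower and 10.5% higher), and in D2_Co against D3_Control HES3 and ZIC2 were lower, beside 25% of all genes (12.6% lower). In D2_Co against D1_Co 2 rose (HES3 and SOX3), beside 7.1% of all genes called (4.23% higher and 2.87% lower). In D3_Co against D2_Co only OTX2 of the 6 was called, beside 15.9% (8.7% higher and 7.22% lower), and in D3_Co against D1_Co 2 rose and 3 fell, beside 26.6% (16.1% higher and 10.5% lower). The counts for day 3 against separate culture, day 2 against separate culture and day 3 against day 2 lie near these shares. In D1_Co against D3_Control 5 of 6 were called, on p-values adjusted over all genes, although only OTX2, HES3 and SOX3 of them kept their call without any 1 library. The median difference of the 6 genes from D3_Control was -0.30 in D1_Co, -0.10 in D2_Co and -0.24 in D3_Co, against -0.03, -0.04 and 0.00 over all tested genes. The 6 genes, and the lists below, were chosen with earlier results of these data known. Their counts and medians beside those of all genes are therefore descriptions and not tests.

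**Figure D3:**
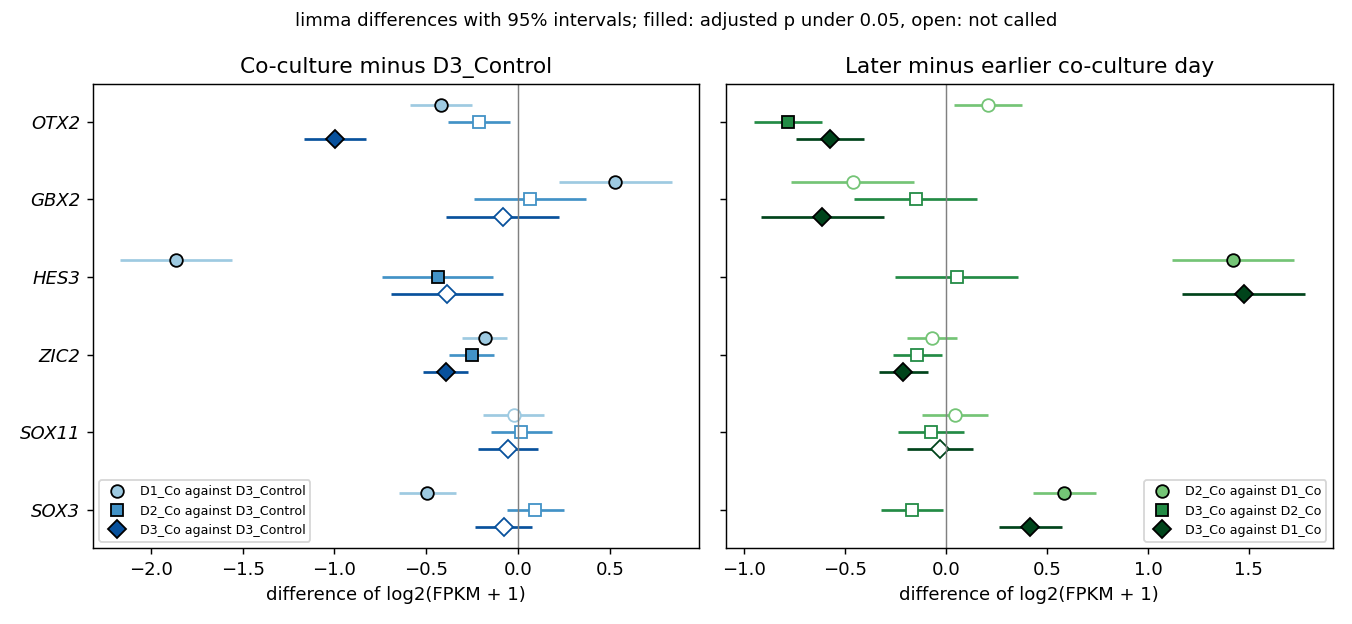
Differences of log2(FPKM + 1) with 95% intervals from limma, for the 3 co-culture days minus D3_Control on the left and for later minus earlier days of co-culture on the right. Filled symbols have an adjusted p under 0.05, open symbols do not. HES3 in D1_Co (-1.86) and OTX2 in D3_Co (-0.998) lie farthest below D3_Control, and all SOX11 symbols are open.

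The 6 genes fell into different patterns over the 8 libraries. Pearson's r of log2(FPKM + 1) was 0.84 between OTX2 and ZIC2 and 0.88 between HES3 and SOX3, while GBX2 ran against HES3 (-0.91) and SOX3 (-0.74). With 4 groups of 2 libraries these values mostly describe the group means. Many other genes share such patterns, with 178 tested genes above 0.9 for OTX2, 187 for ZIC2, 168 for HES3, 60 for GBX2, 39 for SOX3 and 4 for SOX11. Closest to OTX2 were PCNX3 (0.99), ZNF582 (0.98) and BRF1 (0.98), and closest to ZIC2 were UBTF (0.99), LUC7L2 (0.99) and LMAN2 (0.98). HES3 was followed most closely by TRAF3IP2-AS1 (0.98), IGSF1 (0.97) and PIK3C2B (0.97), GBX2 by FKBP1A (0.99), NAA20 (0.99) and LAMTOR3 (0.97), SOX3 by FADS2 (0.98), ACTG2 (0.97) and C16orf58 (0.97), and SOX11 by TMEM175 (0.95), SLC7A6 (0.93) and MTBP (0.92). For ACTG2, a smooth muscle actin, the course is the one of SOX3 at a much larger size, with 21.3 and 16.7 FPKM in D1_Co, 86.0 and 91.5 FPKM in D2_Co, 47.9 and 49.8 FPKM in D3_Co, and 60.1 and 47.0 FPKM in D3_Control. Exons of BRF1, C16orf58, FADS2, FKBP1A, LUC7L2, MTBP, SLC7A6, TRAF3IP2-AS1 and UBTF overlap those of other genes.

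Relatives of the 6 genes were called in both directions. Of 22 listed relatives 10 passed the filter on low values, and in D3_Co against D3_Control 2 were higher and 2 lower, with a median difference of 0.02. SOX2, the SOXB1 partner of SOX3, lay at 125 ± 6.89 FPKM in D3_Co and 136 ± 3.46 FPKM in D3_Control (-0.11, adjusted p = 0.190), and in D1_Co it was lower than in D3_Control (-0.21), as SOX3 was. SOX14 is a SOXB2 protein that in chick embryos acts as a repressor where SOXB1 proteins activate. It was higher in D1_Co, where SOX3 was lower, and also in D2_Co and D3_Co, where SOX3 was not called. SOX14 lay at 15.8 and 11.8 FPKM in D1_Co, 14.9 and 19.2 FPKM in D2_Co, 5.64 and 5.96 FPKM in D3_Co, and 2.44 and 2.11 FPKM in D3_Control. All co-culture libraries lie above both D3_Control libraries, by log2 differences of 2.16 in D1_Co, 2.45 in D2_Co and 1.05 in D3_Co, all of them called. Of the SOXC genes, SOX12 was lower than in D3_Control in all 3 (-0.44, -0.25 and -0.39 in D1_Co, D2_Co and D3_Co), while SOX4 (-0.01, -0.01 and 0.14), whose exons overlap another gene, and SOX11 were not called.

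ZIC5, which lies beside ZIC2 in the genome, was lower in D3_Co than in D3_Control (-0.45), as ZIC2 was. Among the HES and HEY repressors, HES4 lay at 3.91 and 2.88 FPKM in D1_Co, 4.25 and 4.90 FPKM in D2_Co, 3.13 and 3.88 FPKM in D3_Co, and 0.291 and 0.892 FPKM in D3_Control. It was higher in co-culture on each day (1.48, 1.83 and 1.52), against the direction of HES3. HES1, a target of NOTCH signals, was higher in D1_Co (0.50) and D2_Co (0.49) and not called in D3_Co (-0.20). HEY2 was lower in D1_Co (-0.55) and D2_Co (-0.35) and not called in D3_Co (-0.10), and HES6 had no call against D3_Control. The remaining 12 relatives, among them OTX1, GBX1, ZIC1 and SOX1, were under the filter and reached at most 1.04 FPKM in any library.

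**Figure D4:**
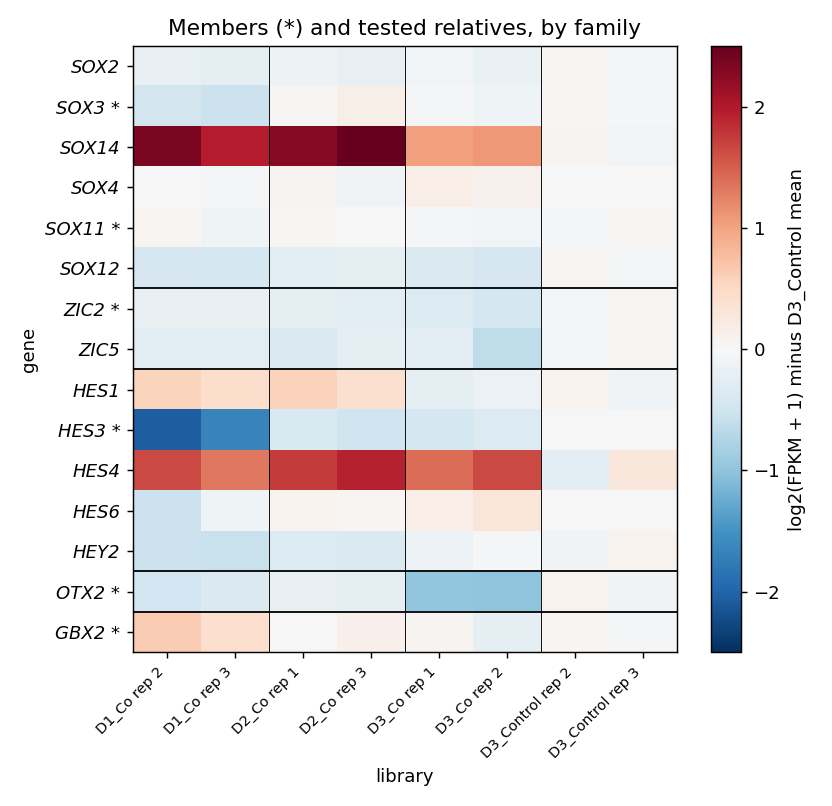
Difference of log2(FPKM + 1) from the mean of the D3_Control libraries for the 6 genes (asterisks) and 9 of their 10 tested relatives, with libraries as columns, families separated by lines, red for higher and blue for lower. SOX14 and HES4 are red in all co-culture libraries, HES3 is dark blue in D1_Co and OTX2 is blue in D3_Co.

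Around these factors, genes of the primed and anterior epiblast were mostly lower in co-culture. In D3_Co against D3_Control 17 of 27 tested genes of that list fell and 4 rose (median -0.32), in D1_Co 14 fell and 3 rose (median -0.23), and in D2_Co 14 fell and 5 rose (median -0.27), beside the background shares above. FOXD3, a factor of primed cells, lay at 3.09 ± 0.0247 FPKM in D3_Co and 11.9 ± 0.817 FPKM in D3_Control (-1.66), and the WNT antagonist SFRP1 at 11.1 ± 0.200 FPKM in D3_Co and 30.6 ± 1.83 FPKM in D3_Control (-1.38). SALL2, a zinc finger factor, and DNMT3B, a DNA methyltransferase, fell by 0.74 and 0.67 on the log2 scale, and LEFTY1, an antagonist of NODAL, rose by 0.80. Of the core pluripotency genes 6 of 12 fell in D3_Co and 0 rose (median -0.20), with PRDM14, TDGF1, L1TD1, LIN28A and SALL4 at -0.60, -0.47, -0.46, -0.44 and -0.31. POU5F1 (0.09), NANOG (-0.11) and SOX2 were not called on day 3. TDGF1, LIN28A and SALL4 stand on both lists, and exons of FOXD3, SALL2, LEFTY1, TDGF1, L1TD1 and POU5F1 overlap other genes.

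Genes of the formed neural plate were mostly silent. Of 34 listed genes of the anterior neural plate and neural progenitors, 9 passed the filter, and 3 rose and 2 fell in D3_Co against D3_Control (median 0.08). POU3F1, a POU factor of epiblast and neural plate, lay at 6.95 ± 0.260 FPKM in D3_Co and 11.2 ± 0.463 FPKM in D3_Control (-0.62), and HESX1, a homeodomain repressor of the anterior neural plate, at 1.48 ± 0.203 FPKM in D3_Co and 2.67 ± 0.850 FPKM in D3_Control (-0.55). The structural genes NES (0.48), CDH2 (0.41) and TUBB3 (0.22), an intermediate filament, a cadherin and a tubulin, rose. In D1_Co 4 rose and 5 fell (median -0.68), and in D2_Co 4 rose and 4 fell (median -0.19). The list of midbrain, hindbrain and posterior neural genes, which holds partners of GBX2, behaved differently by day, with 5 of 6 tested genes higher than D3_Control in D1_Co (median 1.26) and in D2_Co (median 0.81), and 1 higher and 1 lower in D3_Co (median -0.08). On day 3 these were SP5, a target of WNT (0.58), and IRX2, an Iroquois factor (-0.83). FGF8, a signal of the border between midbrain and hindbrain and named here after its values were seen, was also highest in D1_Co, as GBX2 was, with 7.82 and 9.76 FPKM in D1_Co, 4.96 and 4.67 FPKM in D2_Co, 2.55 and 1.31 FPKM in D3_Co, and 2.14 and 2.12 FPKM in D3_Control. Its D1_Co difference from D3_Control was 1.64 and its D2_Co difference 0.89, both called, while GBX2 in D2_Co overlapped D3_Control. Of the 24 genes on this list only 6 passed the filter. Primitive streak, mesoderm and endoderm genes were also mostly higher than in D3_Control, with 6 of 8 in D1_Co and 7 of 8 in D2_Co. Whether FGF8 stands for the border between midbrain and hindbrain here was not tested. Exons of CDH2 and TUBB3 overlap other genes.

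Markers of other fates moved on the same days. Of 8 tested genes of the primitive streak, mesoderm and endoderm, 6 rose and 1 fell in D1_Co against D3_Control (median 1.31), 7 rose and 0 fell in D2_Co (median 0.82), and 3 rose and 1 fell in D3_Co (median 0.17). On day 3 CER1, a secreted antagonist of NODAL and BMP, had a difference of 1.13, CXCR4, a chemokine receptor, of 0.53, SNAI1, a repressor of CDH1, of 0.48 and FOXA2, a forkhead factor, of -0.84. Of 9 tested genes of neural crest and non-neural ectoderm, 3 rose and 1 fell in D3_Co (median 0.29), and 3 and 1 in D1_Co and 4 and 1 in D2_Co. These were TWIST1 (1.22), KRT19 (0.36) and CDH1 (0.31) upward and SOX9 (-0.41) downward on day 3. Of 15 tested fibroblast markers 9 rose and 0 fell in D3_Co (median 0.35), 6 and 0 in D1_Co (median 0.14) and 9 and 0 in D2_Co (median 0.35), with TWIST1 again and S100A4 (0.95), COL1A2 (0.94), VIM (0.87) and COL5A1 (0.59) on day 3. COL1A1 had a difference of 0.53, and COL3A1, among the most abundant transcripts of fibroblasts, stayed at or below 0.0492 FPKM in all libraries. Whether these other transcripts bear on the levels of the 6 genes was not tested. Exons of CDH1, FOXA2, TWIST1 and VIM overlap other genes.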

How the data were processed

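PolyA RNA of 8 libraries was sequenced. Alignment and assembly tools (HISAT2 2.1.0, StringTie 1.3.3b) and the GRCh38.p12 build are taken from the submitters' processing notes, and their settings are not given in the sources used here. The deposited values are FPKM per gene, and all 8 value columns were used. FPKM carries no read numbers, so a count model could not be used and depth is unknown. Rows were restored on the reading that, within a library, gene number and value had been joined, ordered as text with separator and point ignored, set beside the gene order of D1_Co replicate 2 and ordered by number again. An exact search took, among the orders that this allows, the one nearest to D1_Co replicate 2 (absolute difference of log2(FPKM + 0.1), capped at 4). This was possible in 7 of 7 libraries, and in 0 of 7 under either of 2 other sorting rules. ACTB then lay between 5852 and 7930 FPKM.

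Of 13104 rows that averaged 1 FPKM or more, the 12449 whose name and gene number match in a RefSeq table were tested. Values were log2-transformed from the deposited FPKM with a pseudocount of 1 and analysed with limma 3.58.1 (R 4.3.3) in a single 4-group model, with 4 residual degrees of freedom and a prior worth 3.19. The 6 comparisons were read from it, with calls at an adjusted p under 0.05. Search and fit were also run on simulated data that had been disordered by the same assumed history, which cannot show that this history is right. The genes and lists were chosen with earlier results of these data known. Named were the 6 genes, the tested relatives (1 of them is not reported here), up to 5 called genes a list with the largest day 3 difference, the 3 genes of highest correlation with each of the 6, and markers of stem cells and fibroblasts. Alternatives were another pseudocount, filter, scaling, row repair, fit and replicate block, and each library left out.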

Additional observations from a re-analysis of the deposited data

How the results depend on the processing

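Differences of OTX2 and ZIC2 in D3_Co against D3_Control, of HES3 and SOX3 in D1_Co against D3_Control, of OTX2 in D3_Co against the 2 earlier days and of HES3 and SOX3 in D3_Co against D1_Co kept direction and call in every alternative with repaired rows. Of the allowed values set aside, these alternatives include only the 8.17 FPKM of SOX3 in D1_Co replicate 3. They do not cover SOX3 at 8.66 FPKM in D3_Control replicate 3 or at 9.51 FPKM in D2_Co replicate 3. With the rows as deposited, ZIC2 read 6.05 in D1_Co, 5.997 in D2_Co and 5.72 in D3_Co against D3_Control, and SOX3 read 3.14 in D3_Co against D3_Control and 3.05 in D3_Co against D2_Co, which are values of other genes; with those rows 1 of the 6 genes was called in D2_Co against D3_Control and 3 in D3_Co against D2_Co. No read numbers are known, so what depth limits could not be given, and GBX2 and HES3 in D1_Co, at 1 to 4 FPKM, are the least precise values.

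Comparisons are given here in the order D3_Co, D1_Co and D2_Co against D3_Control, D2_Co against D1_Co, D3_Co against D2_Co and D3_Co against D1_Co, in which 3034, 2834, 3116, 884, 1982 and 3312 genes were called. With no filter on low values the counts were 1745, 1689, 1733, 139, 631 and 1972, over 36028 genes tested. With only rows in place they were 1877, 1754, 1982, 550, 1218 and 2031, over 7965 genes tested. With only the 2 groups compared, D2_Co against D1_Co gave 154 and D3_Co against D2_Co 1034. Leaving out 1 library gave 1604 to 2843, 1356 to 2610, 1496 to 2895, 67 to 667, 475 to 1685 and 1674 to 3008 genes. Of the 6 genes, leaving out 1 library gave 2 to 3, 3 to 5, 0 to 2, 1 to 2, 1 to 1 and 3 to 5 calls. Without the filter 2 of the 6 were called in D1_Co and 0 in D2_Co against D3_Control, 1 in D2_Co against D1_Co and 3 in D3_Co against D1_Co. With only rows in place, where ZIC2 and SOX3 drop out, 1, 3, 1, 1 and 3 were called in D3_Co, D1_Co and D2_Co against D3_Control, D2_Co against D1_Co and D3_Co against D1_Co. In D2_Co against D3_Control 1 was called with median-of-ratios scaling, with no intensity trend and with a pseudocount of 0.1. Without the filter OTX2 (adjusted p = 0.0508), GBX2 (0.135) and ZIC2 (0.108) lost their call in D1_Co against D3_Control, ZIC2 (0.0501) and HES3 (0.223) in D2_Co against D3_Control, HES3 (0.0578) in D2_Co against D1_Co, and GBX2 (0.0865) and ZIC2 (0.0698) in D3_Co against D1_Co. ZIC2 in D1_Co against D3_Control also lost it with median-of-ratios scaling (0.107), no intensity trend (0.0801) or only the 2 groups (0.0608), where HES3 in D3_Co against D3_Control gained one (0.027), ZIC2 in D3_Co against D1_Co with only the 2 groups (0.0595) or quantile normalization (0.0886), and HES3 in D2_Co against D3_Control with median-of-ratios scaling (0.0569), no trend (0.0511) or the lower pseudocount (0.0838). The cause of these changes was not tested, beyond the smaller number of genes or libraries where that is the setting.

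Replicate numbers do not pair the libraries by any label, and deviations of libraries with the same number from their group means correlated between -0.03 and 0.04 across genes. With a replicate block 1819, 101, 721 and 1940 genes were called in D3_Co against D3_Control, D2_Co against D1_Co, D3_Co against D2_Co and D3_Co against D1_Co, and 3, 1 and 1 of the 6 genes in D1_Co and D2_Co against D3_Control and in D2_Co against D1_Co. GBX2 (adjusted p = 0.066 and 0.0565), ZIC2 in D1_Co (0.0541), HES3 in D2_Co against D3_Control (0.104) and SOX3 in D2_Co against D1_Co (0.0592) lost their call under the block. A row-repair cap of 8, a repair toward the mean of the libraries, a fit to settled rows only and the other SOX3 value were added after the data were seen, and none of the 4 moved a call of the 6 genes.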
